A study of Mus musculus with 4 samples.

Results

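The genes described here are 9 keratins, a named set among the 32285 genes of the count matrices. They were taken by symbol and not by level, and are 4 basal keratins (Krt5, Krt14, Krt15 and Krt17) and 5 simple or luminal keratins (Krt7, Krt8, Krt18, Krt19 and Krt23). Their counts were read in 17360 single cells from mouse mammary organoids, grouped into 3 classes by genes that are no keratins. HR+ luminal cells, the hormone-receptor-positive luminal type, were those with at least 300 CPM of Areg, an epidermal growth factor receptor ligand gene, where CPM is a gene's count per 1000000 counts of the cell or class. Contractile basal cells were those with at least 500 CPM summed over the smooth muscle genes Acta2, Cnn1 and Myh11. The remaining cells were called other cells, and 6 cells that met both criteria were set aside.

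Keratins are the intermediate filament proteins of epithelial cells, and a filament forms only where an acidic type I keratin pairs with a basic type II keratin. Krt8 with Krt18 is the pair of simple epithelia and of the luminal cells that line mammary ducts, and Krt5 with Krt14 is the pair of the basal layer, which in the mammary gland holds the myoepithelial cells. Fetal mammary cells and cells that shift between the luminal and basal lineages are known to carry both pairs, and protein stains of these keratins are widely used to tell the lineages apart.

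Organoids are multicellular structures grown in a gel from mammary epithelial cells, here from wild-type mice or littermates with 1 truncated germline Brca2 allele (Brca2mut/WT). Brca2 protects stalled replication forks and acts in homologous recombination. Organoids of both genotypes were left untreated or exposed to hydroxyurea (HU), which stalls DNA replication, in repeated exposures with recovery and passaging after each. The 4 libraries were therefore wild-type control, wild-type HU, Brca2mut/WT control and Brca2mut/WT HU, and values are given in that order throughout.

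Each condition was 1 library, so a difference between conditions has no replicate check and no test was made of it. The titles speak of 2 replicates per library, and each library carried 4 antibody tags that mark separately labelled pools of cells, but no key ties a tag to a mouse or a passage. The design text names organoids of passage 0 and of passage 4 without saying which library or pool holds which, so cells of an HU library may differ in how often they were exposed, and pools may differ in passage. Pools are numbered 1 to 4 by tag. Cells without exactly 1 called tag belong to no pool, so they stay in wherever a pool is left out. The truncated allele was germline and not driven by a mammary Cre, the mice were virgin, aged females, and organoids had been frozen, thawed and regrown in a medium for mammary epithelium. Organoids hold no normal stroma or fat, which limits them as a model of the gland.

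The files held 7639 to 9358 barcodes per library, of which 3293 to 5312 passed the study's filter of 1000 to 6000 detected genes and under 5% mitochondrial counts. These cells held 82186830 to 126866429 unique molecular identifiers (UMIs) per library, with a median of 24180 to 26893 per cell. Doublets were not removed by a caller. Of the kept cells 245 carried more than 1 tag and 1791 carried none. Areg stood at 2547 to 3834 CPM in HR+ luminal cells and Acta2 at 2515 to 4047 CPM in contractile basal cells, with Acta2 at 5.17 to 10.4 CPM in other cells, which checks the gates only. The label of mammary epithelium was met: marker sums were at most 12.6 CPM for endothelial and 1.32 CPM for immune genes in every class, and Ptprc, the pan-leukocyte gene, had no UMI. Among fibroblast markers Dcn stood at 699 to 1535 CPM in HR+ luminal cells while Col1a1 was at most 0.223 CPM there. The part of Dcn-bearing RNA in the HR+ luminal values was not tested. Brca2 mRNA was detected at 5.34, 5.50, 4.27 and 3.92 CPM, and a 3' count does not show the truncation.

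In the GRCm38 annotation 5 of the keratin genes lie on chromosome 11 and 4 on chromosome 15. The type I cluster runs from Krt23 (ENSMUSG00000006777, chr11:99477974-99493137) through Krt15 (ENSMUSG00000054146, chr11:100131758-100135928), Krt19 (ENSMUSG00000020911, chr11:100140810-100148665) and Krt14 (ENSMUSG00000045545, chr11:100203162-100207548) to Krt17 (ENSMUSG00000035557, chr11:100256217-100261029), all on the minus strand. Chromosome 15 holds Krt7 (ENSMUSG00000023039, chr15:101411043-101430313, plus), Krt5 (ENSMUSG00000061527, chr15:101707070-101712898, minus), Krt8 (ENSMUSG00000049382, chr15:101996698-102004482, minus) and Krt18 (ENSMUSG00000023043, chr15:102028180-102032027, plus). Krt18 is thus the type I gene that sits apart from its own cluster, beside its partner Krt8, and their starts lie 23.7 kb apart on opposite strands.

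Promoter sequence is shown for Krt5, Krt8 and Krt18 because the single-cell results turn on the pairs they belong to. The sequences come from RefSeq on GRCm38.p6 and run 5′ to 3′ on the gene's strand. Each stops before the RefSeq start or the annotated gene start, whichever lies further upstream. Capitals mark the 2 short motifs found, ATAAAA, which is TATA-like, and CAGCTG, an E box.
Krt5 (chr15:101712906-101713155, minus strand): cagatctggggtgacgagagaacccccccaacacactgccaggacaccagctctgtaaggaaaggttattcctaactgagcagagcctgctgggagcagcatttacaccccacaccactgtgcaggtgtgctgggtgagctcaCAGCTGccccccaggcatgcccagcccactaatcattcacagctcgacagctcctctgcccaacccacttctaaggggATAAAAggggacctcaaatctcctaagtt
Krt8 (chr15:102004483-102004592, minus strand): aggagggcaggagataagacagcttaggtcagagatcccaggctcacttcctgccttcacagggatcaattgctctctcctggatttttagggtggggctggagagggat
Krt18 (chr15:102027966-102028179, plus strand): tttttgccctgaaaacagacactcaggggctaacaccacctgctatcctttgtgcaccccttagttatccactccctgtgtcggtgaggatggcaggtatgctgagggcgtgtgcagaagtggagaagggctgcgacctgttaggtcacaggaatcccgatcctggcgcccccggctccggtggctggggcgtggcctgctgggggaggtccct

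The Krt5 window held ATAAAA 29 bases and CAGCTG 107 bases before the RefSeq start, and lacked the GC box GGGCGG. On either strand these letters occur in 17.0%, 13.0% and 32.7% of the 32851 RefSeq mouse promoters over the same window. The shorter Krt8 and Krt18 windows held none of the 3 motifs, against 8.74%, 5.42% and 11.6% of promoters over the Krt8 window and 14.5%, 11.1% and 27.6% over the Krt18 window. Both windows stop short of the RefSeq starts (102004342 for Krt8 and 102028216 for Krt18), so the bases next to those starts were not searched. The absence of motifs in them is therefore not comparable with the Krt5 matches. GC content was 56% for Krt5, 53.6% for Krt8 and 60.7% for Krt18. The motifs were picked after the windows had been read, and a match is a description of the letters only.

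The luminal keratins were highest in HR+ luminal cells, apart from Krt23. Krt19, a type I keratin with almost no tail domain, stood at 5400.1, 6865, 7643 and 7206 CPM in HR+ luminal cells, 228, 269, 235 and 254 in other cells and 57.7, 62.7, 50.6 and 47.6 in contractile basal cells. The ranges of the 3 classes did not overlap. Krt7, a type II keratin of glandular ducts, stood at 1335, 1399.8, 1449 and 1238 CPM in HR+ luminal cells and 142, 128, 119.9 and 126 in other cells, with contractile basal cells between them at 349, 203, 308 and 212 CPM.

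Krt8 and Krt18 were less sharply divided. Krt8 stood at 2716, 3407, 3306 and 2936 CPM in HR+ luminal, 939.7, 1055, 1056 and 1028 in other and 429, 387, 501 and 331 in contractile basal cells. Krt18 stood at 2659, 3479, 3091 and 2942 CPM in HR+ luminal cells, at 1800.0, 1835, 2096 and 1928 CPM in other cells and at 601, 522, 551 and 442 CPM in contractile basal cells. Both kept that order in all 4 libraries, and neither was near 0 in contractile basal cells. Krt23, a type I keratin, ran the other way, with 17.8, 18.3, 26.8 and 25.7 CPM in other cells and 2.58, 2.45, 2.94 and 2.39 CPM in HR+ luminal cells. In HR+ luminal cells it rested on 13, 11, 10 and 7 UMIs.

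The basal keratins did not divide the classes in this way. Krt5 stood at 571, 1038, 479 and 565 CPM in contractile basal cells, 394, 429, 136 and 202 in other cells and 249, 318, 48.0 and 10.9 in HR+ luminal cells. Krt14 stood at 1027, 2040.1, 947 and 779.5 CPM in contractile basal cells, at 1589.8, 1649, 563 and 693 CPM in other cells and at 948, 1842, 554 and 134 CPM in HR+ luminal cells. Krt14 was thus higher in other than in contractile basal cells of the wild-type control, and lower in the remaining 3 libraries. Krt17, a type I keratin of hair follicles and wounded epithelium, was highest in contractile basal cells of every library at 225, 349.6, 251 and 295 CPM. Krt15, a type I keratin of the basal layer, was highest in HR+ luminal cells of 3 libraries at 257, 429, 77.4 and 46.1 CPM, while in contractile basal cells it read 8.78, 95.8, 51.0 and 48.1 CPM.

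**Figure D1:**
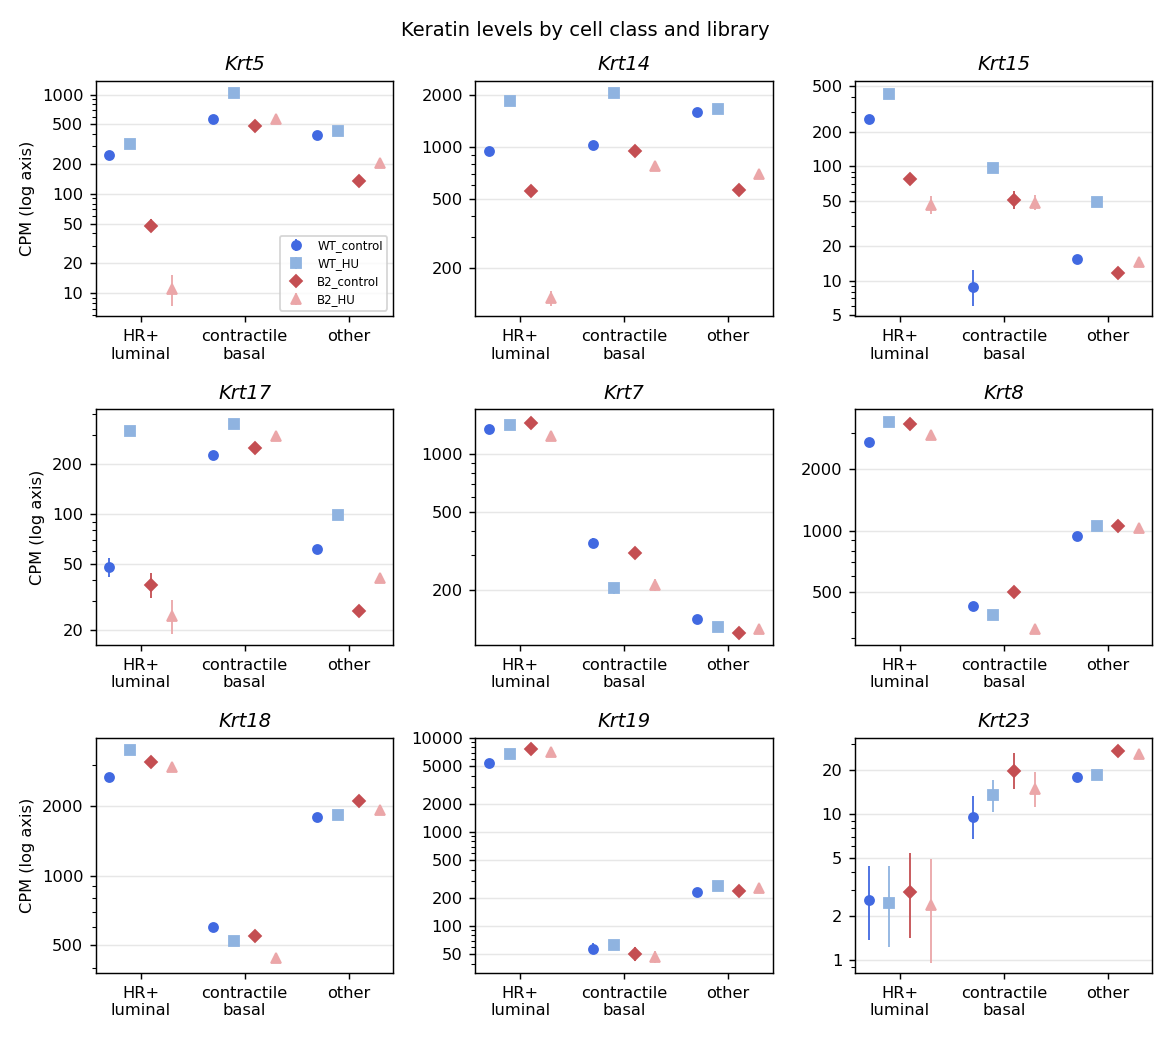
CPM of each keratin (log axis, 1 panel per gene) by class and library, where B2 stands for Brca2mut/WT and bars are exact Poisson intervals on the summed UMIs. Krt19 and Krt7 stand highest in HR+ luminal cells in every library, while the Krt5, Krt14 and Krt15 points of a class spread widely over libraries.

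The plot of levels by class shows 1 point per library, and its intervals, like all those given here, cover counting error at 95% and nothing else. Reads of near-identical keratins and pseudogenes (Krt14 with Krt16 and Krt17, and processed copies of Krt8 and Krt18) may be shared or discarded in counting, so small values of these genes are uncertain. Levels are compared between classes for a gene and not between genes.

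Classes were tested over the 4 libraries with edgeR's quasi-likelihood test on summed counts, with library as a block and Benjamini-Hochberg adjustment over 11911 genes. HR+ luminal against other cells differed in 66.1% of all genes tested (32.6% higher and 33.5% lower), and in 6 of 9 keratins, which is near that background. Krt19 was 24.8-fold higher (log2 4.63 ± 0.13, adjusted p = 4.72e-08), and Krt7 (log2 3.25 ± 0.16, adjusted p = 8.19e-07), Krt15 (log2 2.97 ± 0.61, adjusted p = 0.00491), Krt8 (log2 1.45 ± 0.10, adjusted p = 3.54e-06) and Krt18 (log2 0.52 ± 0.11, adjusted p = 0.00345) were also higher. Krt23 was lower (log2 -3.19 ± 0.16, adjusted p = 1.48e-09). Krt5, Krt14 and Krt17 did not pass, at log2 -1.32 ± 0.62, -0.77 ± 0.47 and 0.40 ± 0.57 (SE). With doubled gates Krt5 and Krt14 passed as lower in HR+ luminal cells (log2 -1.81 and -1.43), and with halved gates Krt17 passed as higher (log2 1.31). Krt5 also passed as lower by the DESeq2 Wald test.

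Contractile basal against other cells differed in 53.8% of genes (26.7% higher and 27.1% lower) and in 6 of 9 keratins. Krt8, Krt18, Krt19 and Krt23 were lower in contractile basal cells (log2 -1.37 ± 0.10, -1.91 ± 0.11, -2.21 ± 0.13 and -0.68 ± 0.11), and Krt17 and Krt7 were higher (log2 2.44 ± 0.55, adjusted p = 0.00955, and 0.98 ± 0.15, adjusted p = 9.54e-04). Krt7, counted among the luminal keratins, therefore rose in contractile basal cells. The pair that defines the basal layer did not pass: Krt5 had log2 1.29 ± 0.59, adjusted p = 0.112, and Krt14 log2 0.09 ± 0.46, adjusted p = 0.889. Other cells were a mixed reference, as some held at least 50 CPM of Trp63, a basal transcription factor gene. Summed Krt5 and Krt14 levels in those cells lay above the contractile basal levels in every library. In turn, 32.5% of contractile basal cells held 500 CPM or more of Krt8 plus Krt18 and less than that of Krt5 plus Krt14. The contrast thus cannot show whether Krt5 and Krt14 mark basal cells. The Krt17 call was lost without the Brca2mut/WT control library (adjusted p = 0.0659). With no upper limit on detected genes and up to 10% mitochondrial counts, Krt5 and Krt14 both passed as higher in contractile basal cells (log2 1.95, adjusted p = 0.000973, and 1.27, adjusted p = 0.0153, by edgeR).

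HR+ luminal against contractile basal cells differed in 62.2% of genes (31.1% higher and 31.1% lower) and in 7 of 9 keratins. Krt19 was 115-fold higher in HR+ luminal cells, with Krt7, Krt8 and Krt18 higher by log2 2.27, 2.82 and 2.43. Krt23, Krt5 and Krt17 were lower (log2 -2.51, -2.61 and -2.04), the last pair with adjusted p = 0.0121 and 0.0232. Krt14 and Krt15 did not pass (log2 -0.86 ± 0.47, adjusted p = 0.156, and 1.77 ± 0.68, adjusted p = 0.0601). By the DESeq2 Wald test Krt15 passed as higher (adjusted p = 0.0244). The Krt5 call was lost without the Brca2mut/WT control library (adjusted p = 0.0775) and with halved gates (0.0547). The Krt17 call was lost without the library block (adjusted p = 0.127) and without the wild-type control, Brca2mut/WT control or Brca2mut/WT HU library (adjusted p = 0.0942 to 0.114). Krt14 passed as lower with doubled gates (log2 -1.58, adjusted p = 0.0110) and with the wider cell filter of no upper limit on genes (log2 -1.32, adjusted p = 0.0117). Scaling by library totals in place of TMM left each keratin count as it was, but moved the median of all genes in HR+ luminal against other cells from -0.02 to 0.13 and the share of higher calls from 49.3% to 61.0%.

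The structures that keratin filaments attach to were followed through gene lists. Hemidesmosomes anchor basal keratins to the laminin beneath the cell. Of 9 such genes tested, 8 were higher in contractile basal than in other cells and 1 did not pass, with a list median of log2 1.20 against -0.01 over all genes, of which 26.7% were called higher. Among them were the laminin genes Lama3 (log2 3.04) and Lamb3 (2.20) and the collagen gene Col17a1 (2.78). In HR+ luminal cells 6 of 9 were higher than in other cells, among them the gene of the linker plectin, Plec (log2 1.87), and the integrin Itga6 was lower (-1.08), in a contrast that called 66.1% of all genes.

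Desmosomes join the keratin networks of neighbouring cells. Of 10 desmosome genes tested, 5 were higher and 3 lower in contractile basal than in other cells (median log2 0.13, with 53.8% of all genes called), with Perp at log2 1.35, the plakophilin Pkp2 at -2.04 and the cadherin Dsc2 at -1.63. HR+ luminal cells had 5 of 10 higher and 1 lower than other cells (median 0.34), near the 66.1% of all genes called in that contrast. Of 12 other intermediate filament and linker genes, 6 were higher and 3 lower in contractile basal cells. Synm, which encodes synemin, rose by log2 3.20 and vimentin (Vim) by 2.70, while nestin (Nes) was lower at -1.20.

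Of 44 further keratin genes in the matrices, 9 were abundant enough to test between classes. In HR+ luminal against other cells 4 were higher and 2 lower, near the 66.1% of all genes called. Krt78 (log2 6.39), Krt4 (5.05) and Krt80 (3.65), type II keratins of stratified epithelia, and Krt6a (2.06) were the higher ones. The squamous gene Sprr1a, a cornified envelope precursor, stood at 962 to 3062 CPM in the same HR+ luminal cells. It made up most of the summed squamous list there, at 983 to 3202 CPM against 65.6 to 205 in other cells. Of 6 squamous genes tested in this contrast 2 were higher, 1 was lower and 3 did not pass (median log2 0.59). In contractile basal cells Krt71 (log2 3.76) and Krt80 (1.52) were higher than in other cells, and Krt6b (-4.40), Krt6a (-2.47) and Krt79 (-2.44) lower. Krt6a and Krt6b are near-identical, so the split of counts between them is uncertain.

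Class means hid how unequal single cells were. In other cells the 10% of cells with the most Krt14 carried 88.0 to 96.3% of all Krt14 UMIs, and the median cell held 97.5, 81.9, 24.1 and 28.1 CPM. In HR+ luminal cells the top 10% carried 76.5 to 94.7% and the median cell held 133, 87.4, 33.5 and 26.3 CPM. A small group of cells thus set the Krt14 level of both classes.

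Each cell was therefore placed in 1 of 4 states by its 2 keratin pairs. The luminal pair was called at 500 CPM or more of Krt8 plus Krt18, and the basal pair at 500 CPM or more of Krt5 plus Krt14. Cells with both pairs are called co-expressing. The luminal pair was present in nearly all other cells, with medians of 2555, 2679, 2979.9 and 2805 CPM, whereas the basal pair had medians of 131, 107, 33.4 and 35.5 CPM and 95th percentiles of 12377, 15155, 2109.8 and 2493 CPM. In contractile basal cells the medians of both pairs lay nearer to the threshold, at 786, 621, 756 and 623 CPM for Krt8 plus Krt18 and 521, 1257, 264 and 727 CPM for Krt5 plus Krt14. Between 400 and 600 CPM lay 22 to 54 contractile basal cells per library for Krt8 plus Krt18 and 7 to 20 for Krt5 plus Krt14, so a state is a range on a continuous scale and not a cell type.

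**Figure D2:**
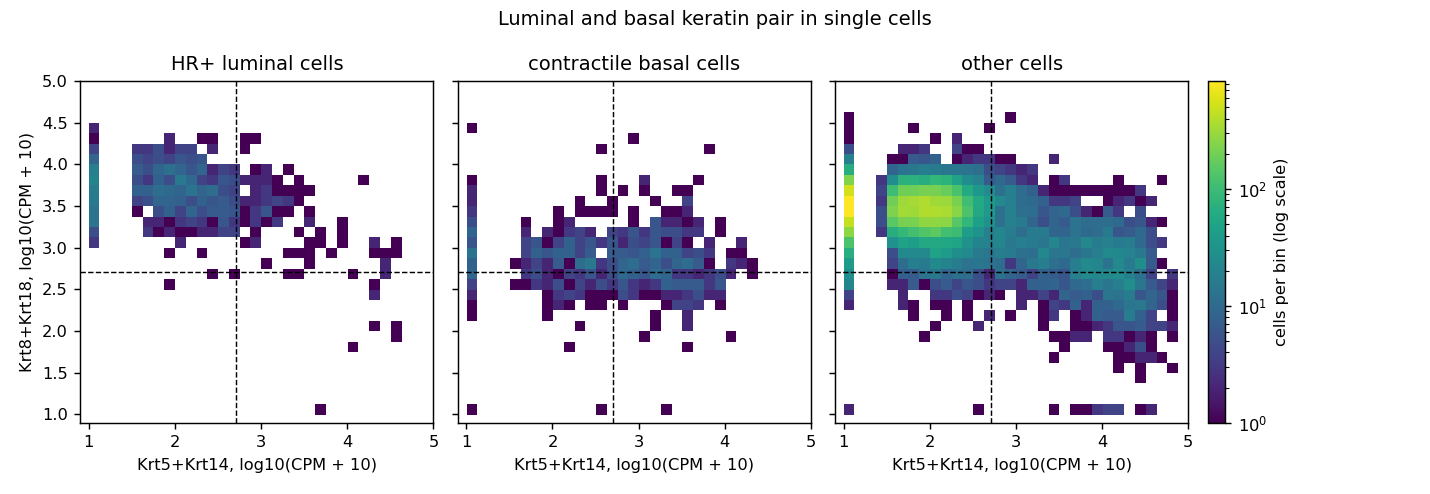
Single kept cells by the log10 of Krt8 plus Krt18 CPM and of Krt5 plus Krt14 CPM, each with 10 added, in other, contractile basal and HR+ luminal cells, shaded by the number of cells, with dashed lines at 500 CPM. Most other cells lie at a high luminal pair and a low basal pair, and contractile basal cells spread along both axes across the lines.

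In other cells 513, 528, 238 and 198 cells co-expressed both pairs, or 10.5% (9.61 to 11.3), 12.6% (11.6 to 13.6), 6.15% (5.41 to 6.95) and 6.65% (5.78 to 7.61) with exact binomial intervals. The Brca2mut/WT shares were the lower ones, a difference between single libraries that has no replicate check. The intervals count cells and do not cover the spread between pools. Over the pools the share ran from 4.99% to 22.1%, 4.38% to 25.3%, 0.146% to 12.4% and 0.741% to 11.7%, and these ranges overlapped between the genotypes. Cells with the luminal pair alone made up 84.1%, 79.9%, 90.8% and 89.0%, and those with the basal pair alone 4.53%, 6.40%, 1.99% and 3.09%. Over all libraries 9.26% of 15955 other cells, 15.6% of 672 HR+ luminal cells and 36.3% of 727 contractile basal cells co-expressed. Because other cells are the most numerous, they held 1477 of the 1846 co-expressing cells, or 80.0%.

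Contractile basal cells co-expressed in 35.7%, 40.5%, 27.0% and 37.9% of cells, and carried the luminal pair alone in 41.8%, 24.8%, 45.2% and 24.3% and the basal pair alone in 14.3%, 25.2%, 14.3% and 22.6%. No single state held most of these cells in any library. HR+ luminal cells co-expressed in 21.7%, 13.3%, 10.8% and 13.7%, which were 48, 23, 15 and 19 cells.

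**Figure D3:**
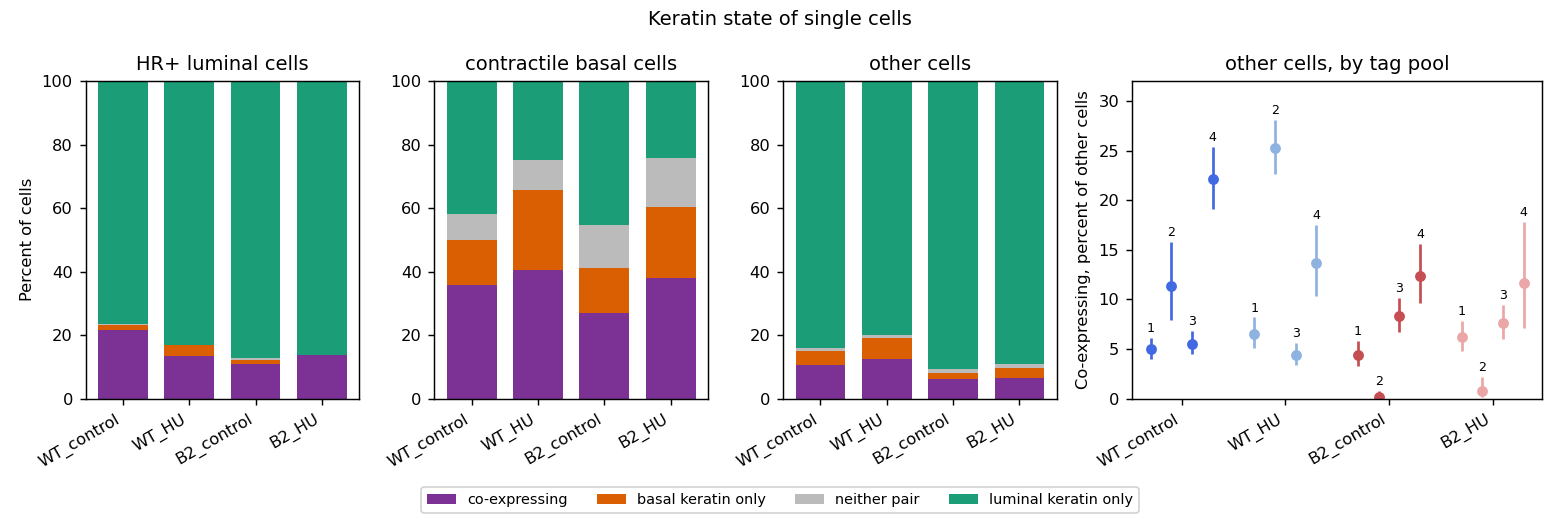
Share of cells in each keratin state by class and library (stacked bars, percent of cells), and at right the share of other cells that co-expressed in each tag pool with 95% exact binomial intervals. Co-expressing cells take the largest share in the contractile basal class, and pools of the same library range from 0.146% to 12.4% in the Brca2mut/WT control.

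Depth, tags and free RNA bear on these shares, and their values follow. Co-expressing other cells were shallower than luminal-pair-only cells, with medians of 17981, 21382, 18006.5 and 18404 against 24800, 25282, 25124 and 27847.5 UMIs. Cells with at least 5000 UMIs, 14920 of the 15955 other cells, were also thinned to 5000 UMIs, and shallower cells were left out. A pair was then called at 3 UMIs, which is a higher cutoff in CPM than that of the unthinned states. Among these thinned cells 10.7%, 13.1%, 5.60% and 5.76% of other and 28.8%, 38.2%, 31.9% and 31.5% of contractile basal cells co-expressed. More than 1 tag was carried by 2.57% of co-expressing, 1.30% of luminal-pair-only and 0.758% of basal-pair-only other cells. Among cells with exactly 1 tag the share of other cells that co-expressed was 8.20%. That set, 14184 of the 15955 other cells, leaves out cells without a tag as well as those with more than 1. Of the 1477 co-expressing other cells 38 carried more than 1 tag, so the lower share is not that of removing such cells alone.

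Free RNA gives low counts to cells that do not make a transcript, so the share of cells with any Krt14 UMI after thinning was set beside that in cells low in a basal gene. It was 42.3%, 39.8%, 17.0% and 18.4% in other cells low in Trp63, a basal transcription factor gene, against 66.4%, 74.5%, 56.3% and 62.7% in other cells with at least 50 CPM of Trp63 and 49.2%, 45.6%, 31.0% and 27.5% in HR+ luminal cells. Krt14 UMIs were thus also found in many Trp63-low cells. The HR+ luminal shares lay above the Trp63-low and below the Trp63-high ones in every library. Trp63-low cells were not all free of basal keratin, with 95th percentiles of Krt5 plus Krt14 at 6793, 10255, 483 and 642 CPM. Whether they held basal cells with undetected Trp63 was not tested. Split by Trp63, other cells co-expressed in 30.0% of Trp63-high and 6.99% of Trp63-low cells. At the depth of these cells 50 CPM of Trp63 is only a few UMIs, so the split depends on depth. Krt14 stood at 3876 to 6782 CPM in Trp63-high cells and at 317 to 1200 CPM in Trp63-low cells.

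The co-expressing share ranged more widely over the pools of each library than over the libraries. In other cells the co-expressing share by pool, from 1 to 4, was 4.99%, 11.4%, 5.54% and 22.1% in the wild-type control and 6.53%, 25.3%, 4.38% and 13.6% in the wild-type HU library. It was 4.40%, 0.146%, 8.31% and 12.4% in the Brca2mut/WT control and 6.17%, 0.741%, 7.59% and 11.7% in the Brca2mut/WT HU library. Pool 2 of both Brca2mut/WT libraries was nearly without basal keratin, with Krt14 at 29.7 and 32.5 CPM and Krt5 at 9.61 and 10.5 CPM. It was also low in Krt19 (21.9 and 27.0 CPM) and Krt7 (19.0 and 28.4), and high in Krt23 (64.5 and 68.8 CPM). Elsewhere Krt14 in other cells ranged from 277 CPM in pool 3 to 6322 CPM in pool 4 of the wild-type control.

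Co-expressing other cells held both pairs at intermediate levels. Krt14 read 8025, 7390.3, 6675 and 4697 CPM in them, 90.8, 75.9, 30.9 and 30.7 in luminal-pair-only and 17907, 12987, 10467 and 13085 in basal-pair-only cells. Krt18 read 832, 991, 1177 and 940.3 CPM against 1996, 2087, 2203 and 2068 and 127, 123, 167 and 132 CPM. These genes chose the states, so their levels carry no test. Relative to luminal-pair-only cells, Krt18 stood at 41.7% to 53.4% and Krt8 at 54.4% to 75.5%. Relative to basal-pair-only cells, Krt5 stood at 40.4% to 64.8% and Krt14 at 35.9% to 63.8%.

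The keratins that did not choose the states were also distributed unevenly. Krt7 stood at 268% to 877% and Krt19 at 129% to 270.4% of the level in luminal-pair-only cells, so both were higher in co-expressing cells of every library. Krt7 read 497, 289, 725 and 652 CPM there against 118 to 385 CPM in basal-pair-only cells. Krt17 read 381, 399, 264 and 208 CPM, or 25.8% to 71.0% of the basal-pair-only level. Krt23 fell to 21.3% to 27.7% of the luminal-pair-only level. Krt15 relative to basal-pair-only cells went from 20.9% to 234%, above in 3 libraries and below in the Brca2mut/WT HU library.

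Genes of the milk-secreting, hormone-receptor-negative luminal type were measured in the same cells. Csn3, the kappa-casein gene, stood at 9.66% to 12.2% of its luminal-pair-only level in co-expressing cells. Lalba stood at 3.12% to 7.81%, and Elf5, a transcription factor gene of alveolar cells, at 14.6% to 19.9%. Krt8 and Krt18 chose these cells, so their shares are not read against those of the milk genes, and the part of doublets and free RNA in the co-expressing state was not tested. Csn3 read 1782 to 2625 CPM in co-expressing cells, 576 to 931 in basal-pair-only and 656 to 1516 in HR+ luminal cells. On the basal side, Trp63 stood at 63.0% to 72.0% and Col17a1 at 55.5% to 62.5% of the basal-pair-only level.

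The states were cut on keratins of the same cells. Genes that go with these keratins across cells therefore differ between states by the choice of cells. The calls of both contrasts of co-expressing cells describe the states and are no independent support for them. They also mix state with pool, since the states drew on the pools unequally. Against luminal-pair-only cells, 62.3% of 12547 genes tested with edgeR differed in co-expressing cells (30.2% higher and 32.2% lower). By size among genes of at least 50 CPM that moved the same way in all 4 libraries, the leading rises were Wnt10a, a Wnt ligand gene (log2 6.75; 48.7 to 71.7 CPM against 0.213 to 0.618), and Sostdc1, a secreted modulator of Wnt and BMP signalling (log2 6.59; 291 to 430.1 CPM against 1.97 to 4.41). Sncg, the gamma-synuclein gene (log2 5.94), the desmosomal cadherin gene Dsg3 (5.92) and Dmkn, an epidermal secreted protein gene (5.78), followed. The leading falls were Lalba, which encodes the milk protein alpha-lactalbumin (log2 -4.39; 10.5 to 45.5 CPM against 337 to 666), Scgb2b27 (-4.09), the acute-phase gene Saa2 (-4.07), the scaffold gene Akap12 (-3.72) and the secreted carbonic anhydrase gene Car6 (-3.72). Library totals in place of TMM raised the share of higher calls from 48.4% to 63.3% and the median of all genes by 0.15 on the log2 scale.

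By list, basal and squamous genes were higher in co-expressing than in luminal-pair-only cells, which were chosen for a low basal pair. The counts that follow are a description under that choice. Of 8 basal markers tested 7 were higher and 1 did not pass, 7 of 7 squamous genes were higher, and all 8 HR- luminal markers were lower (list medians log2 3.23, 4.01 and -2.55, against -0.02 over all genes). Desmosome genes were higher in 8 and lower in 2 of 11. The cadherins Dsc3 (log2 6.29), Dsg3 (5.92) and Dsg1a (5.24) rose, and Pkp2 (-1.41) and Dsg2 (-0.31), the forms of simple epithelia, fell. Hemidesmosome genes were higher in 7 and lower in 2 of 9, with Col17a1 at log2 5.65 and Lama3 at 3.48 among the rises and Itga6 at -0.54 and Dst at -0.27 the falls. Of 6 cycling genes 5 were higher (median log2 0.69), and Mki67 read 27.5 to 55.6 CPM against 19.4 to 30.4.

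Against basal-pair-only cells 8.66% of the 12547 genes differed (5.19% higher and 3.47% lower). Higher in co-expressing cells were the tight junction genes Cldn7 (log2 2.58; 92.9 to 144 CPM against 11.5 to 24.2) and Cldn10 (1.75), the clusterin gene Clu (2.30), BC018473 (2.09) and Cystm1 (1.92). The leading falls were genes of cornifying epidermis, with the stefin genes Cstdc5 (log2 -4.24) and Csta1 (-2.89), Krtdap (-3.99; 12.7 to 95.9 CPM against 308 to 801), Calm4 (-3.76) and Sprr1b (-3.66). The squamous list had 6 of 7 lower (median log2 -3.66), the desmosome list 7 lower and 2 higher of 11, and the HR- luminal list 5 of 8 higher (median 1.46). The hemidesmosome list had 7 of 9 and the contractile list all 5 that did not pass. Library totals raised the share of higher calls from 59.9% to 71.6%, and without the wild-type control library 522 in place of 1086 genes were called.

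Basal-pair-only other cells also held keratins of wounded and cornifying epithelium. Krt6a stood at 1065 to 2495 CPM in them, against 185 to 643 in co-expressing cells, and Krt16, its type I partner, at 368 to 898 against 15.6 to 134 CPM. The ranges of Krt6b were also apart (119.9 to 921 against 1.06 to 73.4 CPM), and those of Krt79 overlapped (58.0 to 241 against 34.4 to 103 CPM). Krt10, the keratin of differentiating epidermis, stood at 35.1 to 148 CPM in basal-pair-only cells.

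A share of contractile basal cells carried smooth muscle genes without the basal keratin pair. Those with the luminal pair alone read 109, 134, 64.3 and 78.3 CPM of Krt14 and 45.3, 83.9, 57.5 and 37.4 CPM of Krt5, or 2.94% to 6.25% and 4.62% to 5.73% of the level in contractile cells that co-expressed. Acta2, 1 of the genes that gated the class, stood at 37.4% to 62.9%, Trp63 at 95.5% to 128% and Sparc, a matrix protein gene, at 97.4% to 106%. Trp63 and Sparc were thus near the co-expressing level where the basal keratins were low, and Acta2 was lower. Vim (6.59% to 11.4%), Id4 (9.47% to 17.8%) and Col17a1 (11.8% to 27.1%) were low with the basal keratins.

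The same cells held milk gene RNA. Csn3 stood at 14074, 11766, 10789.9 and 12520.0 CPM in them, or 58.5% to 65.2% of the level in luminal-pair-only other cells, and Mfge8 at 90.7% to 109%. Krt18 stood at 26.5% to 38.5%, Krt8 at 34.9% to 45.4% and Elf5 at 9.20% to 24.2% of the same reference. In co-expressing contractile cells Csn3 read 1375 to 3116 CPM. More than 1 tag was carried by 1.69% of the luminal-pair-only and 2.65% of the co-expressing contractile cells. The part of cell doublets in these values was not tested beyond the tags, which cannot show doublets within a pool.

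HR+ luminal cells that co-expressed had Krt14 at 3058, 10345, 2082 and 1226 CPM, against 124, 82.5, 60.1 and 52.5 CPM in HR+ luminal cells with the luminal pair alone. Krt5 read 813, 1512, 312 and 59.1 against 38.9, 36.8, 12.9 and 7.34 CPM. Both sets of ranges were apart in every library. The rule for the states cut on the sum of Krt5 and Krt14, so this separation follows largely from the choice of cells. Krt19, which the rule did not use, stood at 31.2% to 71.7%, Areg at 32.9% to 77.6% and the prolactin receptor gene Prlr at 16.6% to 65.5% of the luminal-pair-only level. Krt15 was also present in luminal-pair-only HR+ cells, at 264, 410.3, 85.5 and 49.2 CPM.

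Co-expressing HR+ luminal cells were few and in the Brca2mut/WT HU library shallow, with medians of 17148.5, 20696, 31350 and 3213 UMIs. At 5000 UMIs or more 15.0%, 11.2%, 10.3% and 7.84% of HR+ luminal cells co-expressed, and after thinning 16.0%, 12.5%, 11.1% and 8.82%. Dcn ranged from 0.160% to 103% of its luminal-pair-only level in the co-expressing cells. Trp63 read 0 to 29.1 CPM in them, below the 45.0 to 63.4 CPM of co-expressing other cells.

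**Figure D4:**
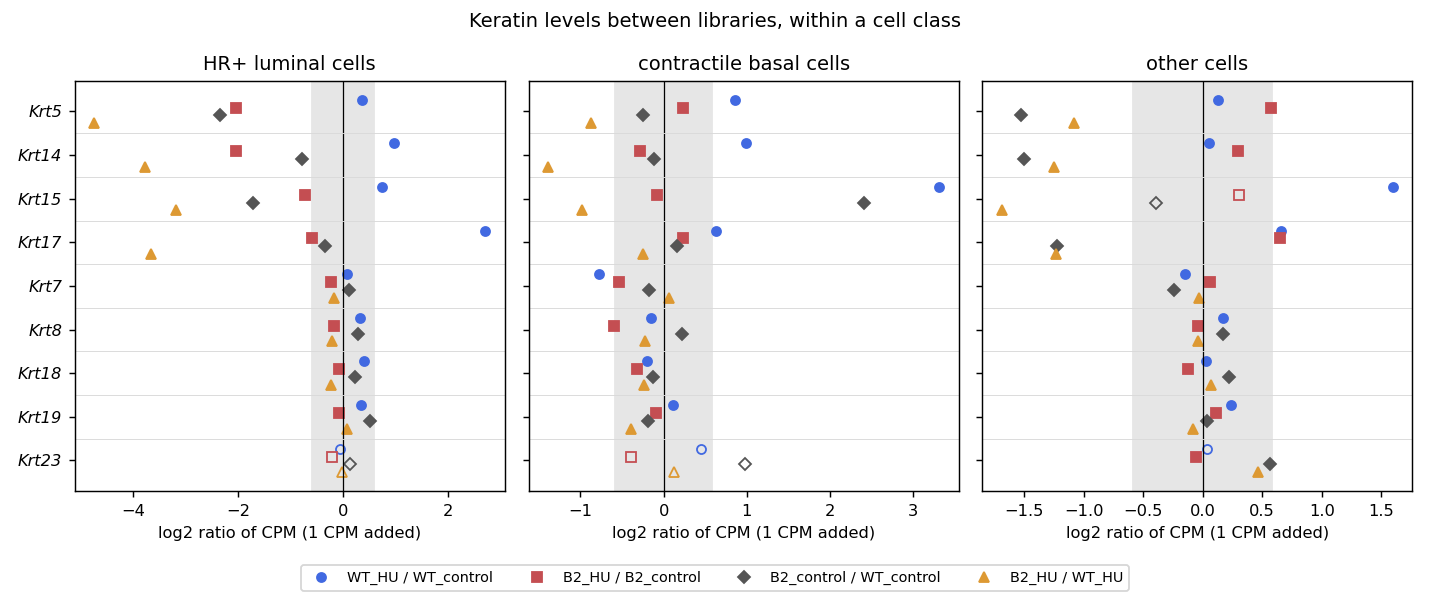
Log2 ratio of CPM between 2 libraries for each keratin, by class and contrast, without intervals. Points are filled for keratins with at least 20 CPM in 1 of the libraries and open for those under it, and a grey band marks ratios within 1.5-fold. In other cells Krt7, Krt8, Krt18 and Krt19 lie inside the band in all 4 contrasts, and Krt5, Krt14 and Krt17 lie below it in the genotype contrasts.

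The conditions were compared as log2 ratios of CPM with 1 CPM added. Their intervals come from the counts without the added 1 CPM, so the ratio of a low gene can lie near an edge of its interval. A keratin was counted where it passed 1.5-fold with at least 20 CPM in 1 of the libraries. There is no test, each library enters 2 of the 4 contrasts, and fewer cells rich in a keratin cannot be told apart from less of it per cell unless the states are separated. The plot of ratios shows them for every keratin. In other cells of the Brca2mut/WT control against the wild-type control, 3 keratins were lower and none higher, against a background of 1.69% of genes, 0.619% higher and 1.07% lower. Krt5 had -1.53 (-1.57 to -1.51), Krt14 -1.50 (-1.51 to -1.48) and Krt17 -1.22 (-1.32 to -1.19), from levels given above. Krt8, Krt18, Krt19 and Krt7 had 0.17, 0.22, 0.04 and -0.24.

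Between the HU libraries the Brca2mut/WT library was lower in 4 keratins (background 2.30% of genes, 0.615% higher and 1.68% lower), with Krt5 at -1.08 (-1.11 to -1.06), Krt14 at -1.25 (-1.26 to -1.24), Krt15 at -1.69 (-1.85 to -1.66) and Krt17 at -1.23 (-1.31 to -1.19). Pools weighed on these values. Leaving out 1 pool at a time, Krt14 ran from -2.23 to -0.13 between the controls, with the smallest size without pool 4 of the wild-type control, and from -1.71 to -0.55 between the HU libraries, with the smallest size without pool 2 of the wild-type HU library. Krt5 ran from -2.21 to -0.29 and from -1.53 to -0.32, and Krt17 from -2.10 to 0.01 and from -1.93 to -0.58. Without pool 2 of both Brca2mut/WT libraries Krt14 had -1.19 and -1.05. Krt15 in the HU libraries stayed past 1.5-fold without any 1 pool (-2.21 to -1.01).

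Within the states the ratios were not alike. Between the controls Krt14 had -0.27 in co-expressing, -1.53 in luminal-pair-only and -0.77 in basal-pair-only other cells, and between the HU libraries it had -0.65, -1.28 and 0.01. Krt14 helped to choose the states, so the rule bounds these ratios and they carry no test. The luminal-pair-only cells, with Krt14 at 30.7 to 90.8 CPM, held the largest ratio in both contrasts. At that level free RNA from basal cells and Krt14 made by the cells cannot be told apart. Krt14 in them stood at 4.43% to 5.71% of the level of the whole class of other cells. These cells thus held little of the Krt14 of the class.

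Fewer keratins passed in HU against control of other cells. In wild-type organoids 2 were higher (background 1.51% of genes, 0.744% higher and 0.763% lower), Krt15 at 1.60 (1.58 to 1.74) and Krt17 at 0.65 (0.62 to 0.71). Krt15 passed without any 1 of 8 pools (0.92 to 2.35) and within co-expressing (1.14), luminal-pair-only (1.11) and basal-pair-only (2.06) cells, while Krt17 had 0.00 to 1.89 over the pools and 0.00 without pool 4 of the HU library. In Brca2mut/WT organoids 1 was higher (background 0.982% of genes, 0.254% higher and 0.727% lower), Krt17 at 0.65 (0.59 to 0.75), with -0.05 to 1.53 over the pools, lowest without pool 4 of the HU library. Krt14 had 0.05 in wild-type organoids, from -0.65 without pool 2 of the HU library to 1.42 without pool 4 of the control. In Brca2mut/WT organoids Krt14 had 0.30, from -0.15 to 1.04 over the pools.

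In contractile basal cells 5 keratins passed in wild-type HU against control (background 6.93% of genes, 3.78% higher and 3.15% lower). Krt15 was higher by log2 3.31 (2.94 to 4.00), Krt14 by 0.99 (0.94 to 1.04), Krt5 by 0.86 (0.79 to 0.93) and Krt17 by 0.63 (0.52 to 0.76), and Krt7 was lower at -0.78 (-0.90 to -0.66). Over the pools Krt15 had 2.56 to 4.81, Krt14 0.40 to 2.06, Krt5 0.23 to 1.84, Krt17 0.12 to 1.81 and Krt7 -1.17 to -0.56, so only Krt15 of these passed without every 1 of the pools in turn. With the wider cell filter Krt5 had 0.36, Krt14 0.52 and Krt17 -0.18, within 1.5-fold. In Brca2mut/WT HU against control 1 keratin passed (background 3.68% of genes, 1.87% higher and 1.81% lower), Krt8 at -0.60 (-0.71 to -0.49), with -0.83 to -0.50 over the pools and 0.24 with the wider cell filter. That count was 5 without pool 4 and 3 without pool 3 of the Brca2mut/WT control and 0 without pool 3 of the HU library, and Krt15 ran from -2.64 to 1.96. Between the controls Krt15 alone passed (background 3.22% of genes, 1.74% higher and 1.48% lower), at 2.41 (1.98 to 3.14) in the Brca2mut/WT library, and it had 0.37 to 3.92 over the pools, lowest without pool 4 of the Brca2mut/WT control. Between the HU libraries 3 were lower in the Brca2mut/WT library (background 3.92% of genes, 1.90% higher and 2.02% lower), Krt14 at -1.39 (-1.45 to -1.33), Krt15 at -0.98 (-1.25 to -0.74) and Krt5 at -0.88 (-0.95 to -0.80). Their pool ranges were -1.75 to -0.80, -3.54 to -0.24 and -1.19 to -0.25, and with the wider cell filter Krt14 had -0.48 and Krt5 -0.31.

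HR+ luminal cells had the widest ratios, on 139 to 221 cells per library, and Dcn moved among the same cells as given above. In wild-type HU against control 3 keratins were higher (background 8.34% of genes, 3.51% higher and 4.83% lower), Krt17 at 2.70 (2.53 to 2.93), Krt14 at 0.96 (0.91 to 1.01) and Krt15 at 0.74 (0.64 to 0.84). In Brca2mut/WT HU against control 4 were lower (background 8.27% of genes, 3.63% higher and 4.64% lower), Krt14 at -2.04 (-2.21 to -1.89), Krt5 at -2.04 (-2.73 to -1.58), Krt15 at -0.73 (-1.06 to -0.44) and Krt17 at -0.60 (-1.06 to -0.19). Of the pools, 4 cells of pool 3 in the Brca2mut/WT control read 12917 CPM of Krt14, against 179 CPM in pool 4, which held most HR+ luminal cells there. Over the pools Krt14 had 0.68 to 1.99 in wild-type and -3.69 to -0.93 in Brca2mut/WT organoids, and Krt17 2.34 to 4.24 and -2.52 to -0.32. The cell filter weighed more: with no upper limit on genes and up to 10% mitochondrial counts, the Brca2mut/WT ratio was -0.19 for Krt14, -0.34 for Krt5, 1.29 for Krt15 and 0.54 for Krt17, none of them lower past 1.5-fold.

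Between genotypes, HR+ luminal cells of the Brca2mut/WT control were lower in 3 keratins than those of the wild-type control (background 6.36% of genes, 3.14% higher and 3.22% lower), Krt5 at -2.35 (-2.62 to -2.14), Krt15 at -1.72 (-1.93 to -1.54) and Krt14 at -0.78 (-0.85 to -0.70). Between the HU libraries 4 were lower (background 7.76% of genes, 4.06% higher and 3.70% lower), Krt5 at -4.74 (-5.41 to -4.36), Krt14 at -3.77 (-3.93 to -3.64), Krt17 at -3.65 (-4.07 to -3.36) and Krt15 at -3.19 (-3.48 to -2.96). All 4 kept their direction and size past 1.5-fold without any 1 pool, from -3.98 to -3.23 for Krt14. Pools 1 to 4 held 4, 8, 3 and 59 of the 139 HR+ luminal cells of the Brca2mut/WT HU library. Its cells of no pool were in every one of these values. Between the controls none of the 3 was lower past 1.5-fold without pool 4 of the Brca2mut/WT control. Krt5 then had -0.58 and Krt15 -0.31, within 1.5-fold, and Krt14 had 0.87, past it in the opposite direction. Krt7, Krt8, Krt18 and Krt19 stayed within 1.5-fold in HR+ luminal cells in all 4 contrasts.

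Across single cells Krt5, Krt14 and Krt17 went together, and so did Krt8 and Krt18. The remaining keratins were tied less closely to the basal or luminal keratins. The correlations are Pearson r on log-scaled counts within each library, given as the median over 4 libraries, and cells of a library share its depth and free RNA. Krt5 with Krt14 had r = 0.82 (0.79 to 0.87) and Krt8 with Krt18 r = 0.70 (0.68 to 0.75). Across all kept cells these type I and type II pairs were the closest among the basal and among the luminal keratins. Within HR+ luminal cells Krt7 with Krt19 had r = 0.70 (0.59 to 0.78) and Krt8 with Krt18 r = 0.68 (0.65 to 0.85). Krt17 went with Krt5 (0.63) and Krt14 (0.62), and Krt7 with Krt19 (0.45). Within other cells, however, Krt7 had 0.33 with Krt14 and 0.27 with Krt5, against -0.06 with Krt8 and -0.12 with Krt18. Krt23 had 0.14 with Krt8 and -0.065 with Krt19 there. Opposed were Krt5 and Krt18 (-0.58) and Krt14 and Krt18 (-0.55). Within contractile basal cells the basal pair kept r = 0.78, while Krt14 with Krt18 (-0.06) and Krt14 with Krt8 (0.00) were near 0. Krt5 stayed weakly negative there with Krt18 (-0.15, from -0.21 to -0.09), and had -0.14 with Krt8 (-0.17 to 0.08).

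**Figure D5:**
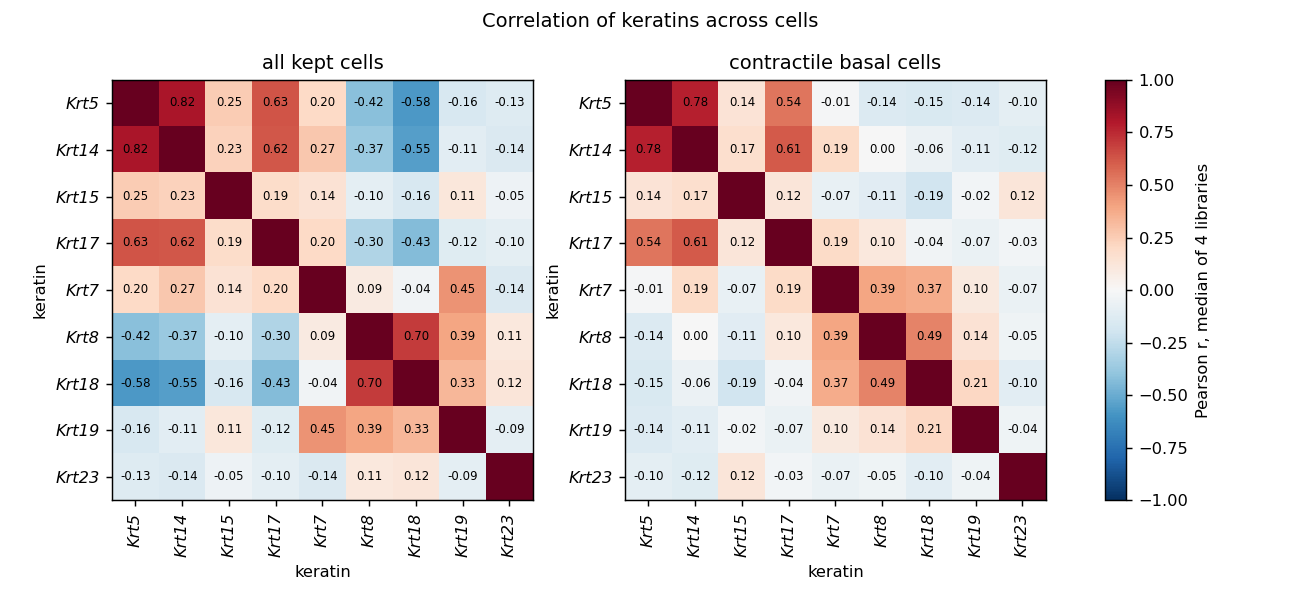
Median Pearson r over 4 libraries between the 9 keratins across all kept cells and across contractile basal cells (colour scale from -1 to 1). Krt5, Krt14 and Krt17 form a positive block in both maps, and the negative values between Krt14 and Krt18 seen in all cells are near 0 in contractile basal cells.

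Of 10689 genes with a UMI in at least 5% of cells, the likest to Krt5 were Lgals7, the galectin-7 gene of stratified epithelia (r = 0.75), Col17a1 (0.71) and Sostdc1 (0.68). Krt14 and Krt17 shared Lgals7 (0.73 and 0.55) and Col17a1 (0.64 and 0.54), followed by Dmkn for Krt14 (0.62) and the kallikrein gene Klk8 for Krt17 (0.51). Krt8 and Krt18 shared Cystm1 (0.49 and 0.59) and the tight junction gene Cldn3 (0.48 and 0.53), followed by the glycolytic enzyme gene Aldoa for Krt8 (0.42) and the malic enzyme gene Me1 for Krt18 (0.50). Krt19 had Areg (0.54), the gene that gated the HR+ luminal class, Plac8 (0.51) and Wnt4 (0.51). Krt7 had S100a6 (0.59), Ly6a, which encodes the surface protein Sca1 (0.52), and S100a14 (0.50). Krt15 and Krt23 had no close neighbour, their likest genes being Ptn (0.29), Lgals7 (0.28) and Alcam (0.26) for Krt15 and Chpt1 (0.27), Gm48882 (0.25) and Socs2 (0.24) for Krt23.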

How the data were processed

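Single cells of mouse mammary organoids were measured in 4 libraries with 10x Genomics 3' chemistry, kit version 3. The authors aligned reads to mm10 and deposited UMI counts per gene and cell, not normalized, from Cell Ranger, version 6.0.2 per the labels and 6.1.1 per the file headers, with antibody tag counts in the same matrices. Their analysis used Seurat 4.0 in R 4.1.3. All cells named here were rebuilt from the deposited counts with the study's filter of 1000 to 6000 genes and under 5% mitochondrial counts. A 3' count depends on the annotated transcript end and drops reads shared between near-identical genes.

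The keratins, gene lists, gates and tests were chosen with earlier results of these data known. Levels are CPM from summed UMIs, with exact Poisson intervals, and shares have exact Clopper-Pearson intervals, at 95%. Tags were called by fitting a mixture of 2 components to each tag's counts and taking a posterior over 0.5. Summed counts per library and class, or per library and keratin state of other cells, were tested with edgeR 4.0.16 in R 4.3.3 (TMM, low-count filter, robust quasi-likelihood fit, adjusted p under 0.05). Library was a block in each fit, because the classes of a library come from the same capture. Pool was not a block, and the classes drew on the pools unequally. Pool 4 of the Brca2mut/WT control held 92 of 139 HR+ luminal and 502 of 3872 other cells. Class and pool are thus mixed in the class contrasts. In the wild-type control Krt14 in contractile basal and other cells read 403 and 302 CPM in pool 1, and 2747 and 6322 CPM in pool 4. The keratin states also drew on the pools unequally, so state and pool are mixed in the contrasts of co-expressing cells. Pool 4 of the wild-type control held 709 of 4906 other cells, 157 of them co-expressing and 140 with the basal pair alone. Pool 2 of the Brca2mut/WT control held 687 other cells, 1 of them co-expressing. The 4 libraries differ in condition, nothing in the labels names separate mice for them, and p-values measure only the spread between these libraries, which may be technical. Both fits were checked on simulated counts.

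Named genes were the 9 keratins, the 3 genes with the highest median correlation with each, up to 4 genes per list by size among those that passed, and the 5 leading rises and falls of each state contrast; values of 1 list gene are not reported here. Genes given as percentages of another state, Sprr1a, Dcn and the further keratins by state were chosen after their values were seen. Alternatives were DESeq2 1.42.0, other scalings, filters, gates, pair thresholds, pseudocounts, cells with 1 tag, no block, and leaving out each library or pool. Added after seeing the data were a split by Trp63, a minimum of 5000 UMIs, and the omission of pool 2 of both Brca2mut/WT libraries. Statistics ran in Python 3.11.15 with numpy 2.4.6, scipy 1.17.1 and scikit-learn 1.9.0, and plots in matplotlib 3.10.9.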

Additional observations from a re-analysis of the deposited data

Results flagged for a closer look

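In HR+ luminal cells 3 basal keratins moved in opposite directions with HU in the 2 genotypes. The difference between genotypes was not tested, since each condition is 1 library. Krt14 had a log2 ratio of HU against control of 0.96 in wild-type and -2.04 in Brca2mut/WT organoids. Krt15 had 0.74 and -0.73, and Krt17 had 2.70 and -0.60. Over the omission of single pools Krt14 ran from 0.68 to 1.99 and from -3.69 to -0.93, Krt15 from 0.07 to 1.73 and from -2.14 to 0.25, and Krt17 from 2.34 to 4.24 and from -2.52 to -0.32. With no upper limit on genes and under 10% mitochondrial counts the Brca2mut/WT ratios were -0.19 for Krt14, 1.29 for Krt15 and 0.54 for Krt17, so the opposite direction was lost for Krt15 and Krt17 and Krt14 was within 1.5-fold. The 10% of HR+ luminal cells richest in Krt14 carried 76.5 to 94.7% of its UMIs, so these ratios rest on few cells, and the part of free RNA or of single cells in them was not tested.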

How the results depend on the processing

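Each class contrast kept its number of called genes within 1.5 times of the value given, under every alternative run, and so did the count of 34 keratin ratios past 1.5-fold (28 to 39). Library was the block in the design. Without the replicate block 5811, 7410 and 7051 genes were called in contractile basal against other, HR+ luminal against other and HR+ luminal against contractile basal cells (6409, 7869 and 7412 with it), and 7299 and 744 in the contrasts of co-expressing cells. Against basal-pair-only cells 1086 genes were called in the main setting, 3336 with no upper limit on genes and under 10% mitochondrial counts, and 522 to 940 without 1 library. The share of other cells that co-expressed, 9.26%, became 16.8% with both pairs at 250 CPM, 3.92% at 1000 CPM, 11.6% with 4 keratins of each kind, 8.20% in cells with 1 tag, 8.56% in cells of at least 5000 UMIs, and 30.0% and 6.99% in Trp63-high and Trp63-low cells.

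Directions turned as follows, and the cause was not tested. In contractile basal against other cells Krt14 ran from -0.10 to 0.32 without 1 library. In HR+ luminal against other cells Krt17 ran from -0.33 to 0.75 without 1 library and had -0.30 with doubled gates, and Krt14 had 0.37 with halved gates, and 0.20 against contractile basal cells. With no upper limit on genes and under 10% mitochondrial counts, the ratio of Brca2mut/WT HU to control was 1.29 for Krt15 and 0.54 for Krt17 in HR+ luminal and 0.24 for Krt8 in contractile basal cells, and that of wild-type HU to control was -0.18 for Krt17 in contractile basal cells. Without 1 pool, Krt15 in HR+ luminal cells had 0.25 in Brca2mut/WT HU against control (control pool 1), and Krt14 between the controls had 0.26 and 0.87 (pool 4 of the wild-type and of the Brca2mut/WT control). In other cells Krt14, within 1.5-fold in wild-type HU against control, ran from -0.65 to 1.42, and Krt17 had -0.052 in Brca2mut/WT HU against control (HU pool 4) and 0.014 between the controls (wild-type pool 4). Of the remaining values, 971 stayed the same, 87 moved, 64 lost and 9 gained the threshold. They include fold changes and ratios of single keratins, median CPM levels and co-expressing shares. A fold change or ratio stayed the same if it kept its direction and side of the threshold. A level did so within its SD over libraries, and a share inside its interval.

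The number of libraries, 1 per condition, limits every ratio between conditions, and the 672 HR+ luminal cells limit the shares in that class. Depth limits Krt23 in HR+ luminal cells and the states of cells under 5000 UMIs.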

Other observations

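Cells with neither keratin pair were 38 to 46 of the other cells in each library. They read 14836 to 18538 CPM of Csn3 and 60.1 to 102 CPM of Trp63, so milk gene RNA and a basal transcription factor gene were both detected in their summed counts. Among contractile basal cells 15, 23, 17 and 27 cells had neither pair.

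Ly6a stood at 896 to 1030.3 CPM in co-expressing, 973 to 1321 CPM in basal-pair-only and 60.0 to 71.1 CPM in luminal-pair-only other cells, beside Krt7 at 289 to 725, 118 to 385 and 82.7 to 108 CPM. Vim stood at 187 to 301, 62.6 to 176 and 30.9 to 35.0 CPM in the same states, and was highest in co-expressing cells. These values were chosen after they were seen.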
